A study of Sinotaia aeruginosa with 24 samples.

Results

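The transcripts that a snail's mitochondria make from their own genome were followed in Sinotaia aeruginosa, a freshwater snail that the series title calls Bellamya aeruginosa, after exposure to cadmium, polystyrene microplastic or both. Members were the assembled gene clusters whose Swiss-Prot or NR description names a protein of the mitochondrial genome, a rule that used names and no measured value. Of 233875 clusters 140 met it, and they name 12 proteins. Complex I, the NADH dehydrogenase, holds 13 clusters of subunit 1 (ND1), 9 of ND2, 3 of ND3, 20 of ND4, 2 of ND4L, 21 of ND5 and 7 of ND6. Cytochrome b of complex III holds 14. Complex IV, the cytochrome c oxidase, holds 20 of subunit 1 (COX1), 10 of COX2 and 11 of COX3, and ATP synthase subunit 6 (ATP6) of complex V holds 10. No cluster carried the name of ATP synthase subunit 8.

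RNA had been taken on day 42 from tissue labelled liver and tissue labelled brain, with 3 samples in each of 8 groups. Control snails were not treated. The exposed snails received cadmium, polystyrene or the pair of them with their algal food every day, each at a concentration labelled medium and given without a value. The design sets the pair of pollutants beside each of them on its own. Samples are named here by treatment and number, with numbers 1 to 3 in liver and 4 to 6 in brain. Nothing in the labels ties a sample to its own animal, so the p-values here measure the spread between these samples and no more.

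Animal mitochondria keep a small genome that encodes core membrane subunits of complexes I, III, IV and V, while the nucleus encodes the remaining subunits and all of complex II. The complexes pass electrons from NADH to oxygen, pump protons across the inner membrane and use the resulting gradient to make ATP. Cadmium is known to enter mitochondria and to bind thiol groups of their proteins.

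Every one of the 12 proteins was represented by more than 1 cluster, with lengths of 302 to 4240 bases (median 592). Both databases named a mitochondrial protein for 105 members, and for 3 of these they named different ones. The best match was a viviparid snail, the family of this species, for 120 members, another gastropod for 2, a rodent for 8, a nematode for 5 and an annelid for 5. The best nucleotide match was Bellamya quadrata for 35 members, Bellamya aeruginosa for 20, Bellamya purificata for 19 and Sinotaia quadrata for 12. Members were unequal in level, with 35 at a mean of at least 100 CPM (estimated counts scaled to a common library total, counts-per-million) and 55 under 1 CPM. Clusters of 1 protein that are nearly identical may share reads, so a level of a single cluster is less certain than the sum over its protein. After the filter on low counts 81 members were tested in liver and 89 in brain, and 48 in neither.

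Samples held 13712265 to 17145998 estimated counts. The tissue labels were set against marker lists. Nerve cell markers summed to 335 to 497 CPM in liver and 1432 to 2422 CPM in brain, and digestive gland markers to 41290.8 to 50014 CPM in liver and 2558 to 6204 CPM in brain. Muscle markers summed to 1156 to 1666 CPM in liver and 14229 to 51060 CPM in brain, so the brain samples held muscle transcripts at a level far above the liver. Brain control 5 stood apart from the other control brains. Its member total was 2.01 times the mean of controls 4 and 6, from 1.57 times for COX3 to 5.63 times for ND4L. In the same library 65 further mitochondrial clusters of viviparid best match and no protein name were at 3.80 times that mean, nuclear-encoded subunits of the 5 complexes at 0.772 to 0.932 times, and nerve cell markers at 1.35 times. Its digestive gland markers stood at 0.479 times that mean, muscle markers at 0.605, blood cell markers at 0.667, ciliary markers at 0.668 and sperm and testis markers at 0.77 times, and the part of this make-up in the results was not tested. Brain control 6 held 159.9 CPM in the members of rodent best match, where no other sample held more than 1.91 CPM. Against control, the brain member sums, protein totals, counts of calls and leading clusters are given with and without brain control 5. So are the counts between control tissues. Other results that use brain control 5, such as sums of called clusters and fold changes of minor clusters, include it unless stated.

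In plain CPM the summed level of all members was higher in control brains than in control livers. The control brains were the most variable group. Control livers held 21622, 19179 and 21468 CPM (20756 ± 1368, SD, n = 3) and control brains held 32544, 63177 and 30392 CPM (42038 ± 18338, SD, n = 3). Without brain control 5 the control brain mean was 31468 CPM. In the fit over both tissues the TMM factors were 0.77 to 0.84 in control livers and 1.22 to 1.29 in control brains. Dividing by them would raise the liver sums and lower the brain sums. The sums were not recomputed with these factors, so the difference in plain CPM may not hold on that scale. Members took 1.815% to 2.557% of a liver library and 2.275% to 6.318% of a brain library, the highest share being that of brain control 5.

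In brain, cadmium samples held 27576, 22752 and 27921 CPM (26083 ± 2889.7, SD, n = 3), and polystyrene samples held 24996, 25004 and 28793 CPM (26264 ± 2190.1, SD, n = 3). Combined samples held 34336, 36398 and 27354 CPM (32696 ± 4739.9, SD, n = 3). Every cadmium and polystyrene brain lay below every control brain, while the combined brains overlapped the controls. The mean differed from the control mean by -38% with cadmium, -37.5% with polystyrene and -22.2% with both. Without brain control 5 these differences were -17.1%, -16.5% and 3.9%. In bulk samples fewer cells of a type and less RNA per cell cannot be told apart. No p-value is given for these sums, since the members were chosen with results of these data known.

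In liver, cadmium samples held 23146, 24332 and 23106 CPM, polystyrene samples 24005, 25569 and 20226 CPM and combined samples 18146, 20797 and 18465 CPM. Their means were 23528 ± 697, 23267 ± 2747 and 19136 ± 1448 CPM (SD, n = 3). The cadmium livers lay above all control livers and above all combined livers, with a mean 13.4% above that of the controls, while polystyrene and combined livers overlapped the controls.

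**Figure D1:**
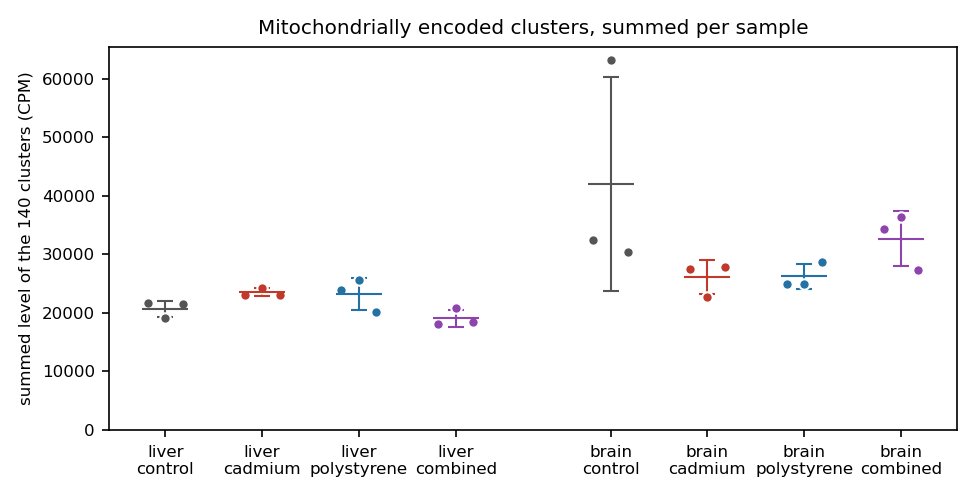
Summed level of the 140 mitochondrially encoded clusters in CPM for each sample (points), by tissue and treatment, with the group mean and SD as bars. Brain control 5 stands at 63177 CPM, and the other brain samples lie between 22752 and 36398 CPM.

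Per length of transcript, complex IV and cytochrome b led. The most abundant cluster of each protein, averaged over all 24 samples, stood at 4791 CPM per kilobase for COX1 (Cluster-2499.88164), which carries the site that reduces oxygen. COX3 (Cluster-2499.87392), a core subunit of the same enzyme, followed at 2278 and cytochrome b (Cluster-2499.88774), which holds the b-type haem groups of complex III, at 2226 CPM per kilobase. COX2 (Cluster-2499.86733), which takes the electron from cytochrome c, stood at 1158 CPM per kilobase. ATP6 (Cluster-2499.89748), part of the proton channel of ATP synthase, stood at 919 CPM per kilobase. The proton-pumping membrane subunits of complex I came lower, with ND4 (Cluster-2499.88311) at 757, ND5 (Cluster-2499.90622) at 564 and ND2 (Cluster-2499.84238) at 356 CPM per kilobase. The membrane subunit ND1 (Cluster-2499.88622) stood at 562, ND3 (Cluster-2499.83820) at 264, ND6 (Cluster-2499.78822) at 260.4 and ND4L (Cluster-2499.90315) at 50.8 CPM per kilobase. Neighbours such as ND5 and ND1 or ND3 and ND6 were closer than their spread, with ND5 at 407 ± 52.8 and ND1 at 365 ± 59.8 CPM per kilobase in control livers (SD, n = 3). The order also changed with the group, since cytochrome b lay above COX3 in 5 of the 8 groups and ATP6 above COX2 in 3. These 12 leading clusters held 35.1% of the reads of their protein for ND4 up to 99.5% for ND4L.

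**Figure D2:**
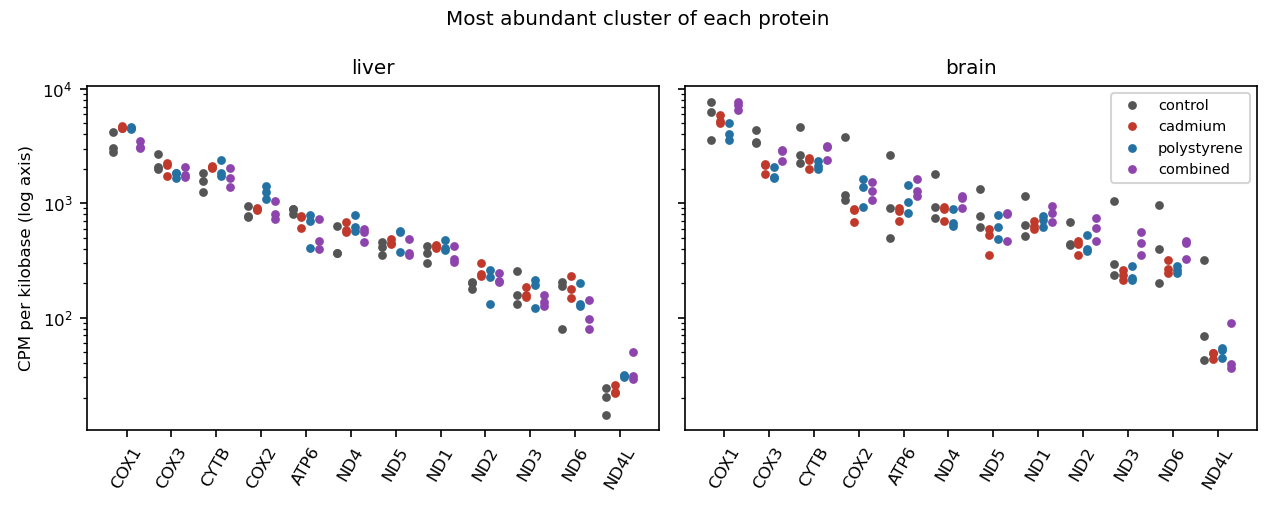
Level of the most abundant cluster of each protein in CPM per kilobase (log axis) for each sample, coloured by treatment, in liver (left) and brain (right). COX1 is highest at a mean of 4791 and ND4L lowest at a mean of 50.8 CPM per kilobase, and the highest brain point is brain control 5 for most proteins, with COX1, COX3 and ND2 as exceptions.

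Differences between treated and control samples were tested with edgeR's quasi-likelihood test over all clusters of a tissue, with Benjamini-Hochberg adjustment, and calls were made where the adjusted p was below 0.05. A value with ± before an adjusted p is a log2 fold change with an approximate standard error, derived from the F statistic of the test. The comparisons of 1 tissue share the control samples, so their values are given side by side and are not independent of each other. Over the 6 comparisons with control 48 members were called at least once, 39 in brain and 12 in liver, with 3 in both tissues. Of all tested clusters 10.9% were called at least once in brain and 9.39% in liver, where the members' shares were 43.8% of 89 and 14.8% of 81. Among the called members 4 were leading clusters. By best nucleotide match, 16 of 33 members of Bellamya quadrata tested in brain were called at least once, 6 of 17 of Bellamya aeruginosa, 5 of 17 of Bellamya purificata and 7 of 11 of Sinotaia quadrata, a description with no test.

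In brain, the calls fell mostly on minor clusters. They ran both ways within some proteins, in each exposure for ND5 and cytochrome b, while ATP6, ND2, ND6 and COX2 had lower calls only. With cadmium 11 of 89 tested members were higher and 19 lower, where 2.6% of all tested clusters were called higher and 1.75% lower (4.34% either way). With polystyrene 7 were higher and 17 lower, against 4.66% and 2.42% of all clusters (7.08% either way). With both exposures 5 were higher and 14 lower, against 2.13% and 1.79% (3.92% either way). The median log2 fold change of the tested members was -0.77, -0.76 and -0.45, in that order, where that of all clusters lay within 0.01 of 0. Without brain control 5 the numbers higher and lower were 8 and 18 with cadmium, 5 and 12 with polystyrene and 9 and 14 with both. The cadmium count was 18 in all without cadmium 4 and 17 without cadmium 5, and the combined count 10 without combined 5. Of the called members 7 were lower in all 3 exposures and 2 higher in all 3, while 5 were higher with cadmium and with polystyrene and not called higher with both. These comparisons share the control brains. The overlaps are a description, with no share over all tested clusters beside them. In the leading clusters the log2 fold change ran from -1.68 to -0.16 with cadmium and from -1.65 to -0.25 with polystyrene, and from -1.34 to 0.33 with both, and COX3 alone was called. Those with cadmium and with polystyrene were all below 0, which did not hold without brain control 5. Without it 8 of 12 were below 0 with cadmium (-0.93 to 0.24), 9 with polystyrene (-1.16 to 0.60) and 1 with both (-0.44 to 1.03). COX3 was then still called with each single exposure, and with both exposures ATP6 and ND3 were called higher.

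The share of the member total held by called clusters is given as a description, since the same contrast chose them. The 11 clusters called higher with cadmium summed to 110.3 ± 45.8 CPM in controls and 686 ± 145 CPM with cadmium, or 0.262% and 2.63% of all members. The 19 called lower summed to 8169 ± 2464 and 2253 ± 279 CPM, or 19.4% and 8.64%. The 14 called lower with both exposures summed to 4828 ± 2093 CPM in controls and 350.0 ± 70.1 CPM in the combined brains. The called clusters thus held a minority of the member reads in each group.

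Summed over its clusters, every one of the 12 proteins had a lower mean in each exposed brain group than in the controls, with log2 ratios of -1.63 to -0.40 for cadmium, -1.53 to -0.39 for polystyrene and -1.40 to -0.08 for both. Exposed and control samples did not overlap for 5, 5 and 2 of the 12 proteins, in that order, and for 5, 5 and 4 without brain control 5. Without brain control 5 the number of proteins lower was 10, 9 and 4 of 12, and the ratios ran from -0.92 to 0.08, -0.80 to 0.07 and -0.25 to 0.60. ND6 was the protein furthest below the controls without that library, at -47.3% with cadmium and -42.7% with polystyrene, followed by COX3 at -31.7% and -29%. Over only the members named by both databases, COX1 stood at 8349 CPM in combined brains against 7624 CPM in control brains, so that 11 of 12 proteins were lower with both exposures. With both exposures and all members, ND3 stood 52.1% and ND2 32.1% above controls 4 and 6.

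**Figure D3:**
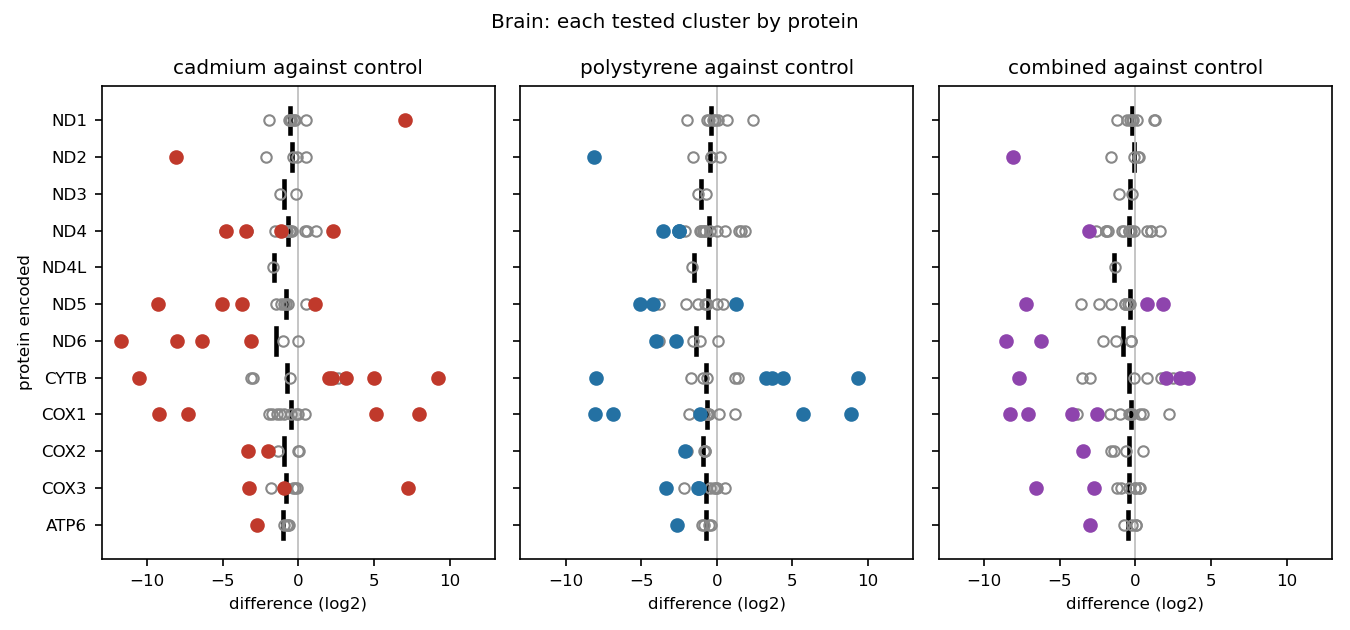
Difference from control on the log2 scale for each tested cluster in brain, by encoded protein, under cadmium, polystyrene and both (filled points called at an edgeR adjusted p under 0.05, open points not called). The black bar is the log2 ratio of the protein's summed mean levels, which lies between -1.63 and -0.08 while fitted values of single clusters spread from -11.74 to 9.34.

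Among complex I clusters in brain, ND4, ND5 and ND6 held most of the calls. With cadmium ND4 had 1 of 15 tested clusters higher and 3 lower, ND5 1 of 10 higher and 3 lower, and ND6 4 of 6 lower. An ND4 cluster (Cluster-2499.84200), a proton-pumping membrane subunit, held 153, 300.3 and 357 CPM in the control brains, 8.9, 9.78 and 12 with cadmium, 14.9, 25.4 and 34.7 with polystyrene and 42.5, 34.4 and 17.6 with both. Every exposed brain lay far below every control brain. The log2 fold change was -4.78 ± 0.45, edgeR adjusted p = 0.00022 with cadmium, -3.57 ± 0.42, edgeR adjusted p = 0.000741 with polystyrene and -3.06 ± 0.41, edgeR adjusted p = 0.00203 with both. Another ND4 cluster (Cluster-2499.26158) went the other way with cadmium, at 2.83, 7.26 and 2.6 CPM in controls against 19.1, 28.2 and 15.5 CPM (2.27 ± 0.52, edgeR adjusted p = 0.0259). The call was lost without control 4 or 6 or cadmium 4 or 5 (edgeR adjusted p up to 0.0908). In the combined brains it held 0.367, 0.861 and 2.09 CPM, below the cadmium brains (-4.20 ± 0.58, edgeR adjusted p = 0.00211).

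ND6 clusters fell with cadmium, 4 of 6 tested. Cluster-2499.72010 held 8.96, 44.2 and 26.9 CPM in controls and no count with cadmium, at least 412-fold lower (edgeR adjusted p = 0.00846). Such bounds set the empty group at 3 counts in all and allow for counting error alone. It held 0.133, 1.51 and 3.75 CPM with polystyrene (-4.04 ± 0.92, edgeR adjusted p = 0.0356) and 0, 0.0726 and 0.13 CPM with both (-8.56 ± 1.32, edgeR adjusted p = 0.011). The polystyrene call of Cluster-2499.72010 was lost without control 5 or 6, polystyrene 5 or combined 4, 5 or 6 (edgeR adjusted p up to 0.147) and the combined call without combined 4, 5 or 6 (edgeR adjusted p up to 0.0638). Cluster-2499.76405 held 26.7, 18 and 66.2 CPM in the control brains, 0.726, 0.346 and 0.298 with cadmium, 1.05, 5.55 and 12.2 with polystyrene and 6.39, 9.04 and 9.65 with both. It was lower than control with cadmium (-6.37 ± 0.89, edgeR adjusted p = 0.00316) and, at the edge of the threshold, with polystyrene (-2.70 ± 0.69, edgeR adjusted p = 0.0421). The polystyrene call was lost without control 4, 5 or 6, cadmium 4, 5 or 6, polystyrene 5 or combined 4, 5 or 6 (edgeR adjusted p up to 0.151). Another ND6 cluster (Cluster-2499.129622), below the top of the ranking and chosen after its values were seen, held 21.6, 144 and 41.7 CPM in controls against 0.066, 0.277 and 0.476 with cadmium (-7.99 ± 1.36, edgeR adjusted p = 0.0134) and 1.16, 1.35 and 0.13 with both (-6.25 ± 1.20, edgeR adjusted p = 0.0227). These calls were lost without cadmium 4, 5 or 6 (edgeR adjusted p up to 0.0726) and without combined 4, 5 or 6 (edgeR adjusted p up to 0.083). ND6 is a membrane subunit that lies beside the quinone tunnel of complex I in mammals. The leading ND6 cluster (Cluster-2499.78822) was not called, at 238, 586 and 121 CPM in controls and 191, 149 and 159.6 CPM with cadmium.

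ND5, the far end of the proton-pumping arm, had clusters moving both ways. Cluster-2499.88267 held 128, 63.3 and 53.8 CPM in the control brains, 221, 127 and 187 with cadmium, 193, 212 and 225 with polystyrene and 302, 334 and 194 with both. All exposed brains but cadmium 5 lay above all controls, and the log2 fold change was 1.09 ± 0.29, edgeR adjusted p = 0.0494 with cadmium, 1.27 ± 0.29, edgeR adjusted p = 0.0194 with polystyrene and 1.82 ± 0.30, edgeR adjusted p = 0.00418 with both. The cadmium call was lost without control 5 or 6, cadmium 4, 5 or 6, polystyrene 4, 5 or 6 or combined 5 (edgeR adjusted p up to 0.183) and the polystyrene call without control 5 or 6 or polystyrene 5 or 6 (edgeR adjusted p up to 0.0788). Cluster-2499.93466 held 21.6, 42.6 and 67.1 CPM in the control brains, 0.0773, 0.0872 and 0.0613 with cadmium, 0.068, 1.43 and 2.85 with polystyrene and 6.66, 3.22 and 0.697 with both, lower with cadmium (-9.29 ± 1.35, edgeR adjusted p = 0.00507) and with polystyrene (-5.06 ± 0.97, edgeR adjusted p = 0.0147). The polystyrene call was lost without polystyrene 5 (edgeR adjusted p = 0.0764). Cluster-2499.92757 held 45.1, 672 and 60.9 CPM in the control brains, 12.3, 5.16 and 8.01 with cadmium, 13.3, 18.7 and 28.9 with polystyrene and 2.7, 1.69 and 0.67 with both and was called lower with cadmium (edgeR adjusted p = 0.0447) and with both (-7.25 ± 1.29, edgeR adjusted p = 0.0178), with brain control 5 far above the other controls. The cadmium call was lost without cadmium 4, 5 or 6, polystyrene 4, 5 or 6 or combined 4, 5 or 6 (edgeR adjusted p up to 0.161). The combined call was lost without combined 4, 5 or 6 (edgeR adjusted p up to 0.0808). An ND2 cluster (Cluster-2499.101386) held 2.96, 2.06 and 1.49 CPM in controls and no count in any exposed brain, at least 33.6, 32.8 and 34.7-fold lower with cadmium, polystyrene and both (edgeR adjusted p = 0.00893, 0.00705 and 0.00972). An ND1 cluster (Cluster-2499.109772) was at or near 0 outside the cadmium brains, where it held 2.71, 3.53 and 5.95 CPM against 0.0673, 0 and 0 in controls (edgeR adjusted p = 0.00118). ND3 had 2 clusters and ND4L 1 cluster tested, and none was called in brain.

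Cytochrome b was the protein with the most clusters called higher, 5 of 10 tested with cadmium, 4 with polystyrene and 3 with both, beside 1 called lower each time. Cluster-2499.82579 held 0.403, 0 and 0 CPM in the control brains, 99.3, 63.1 and 94.7 with cadmium, 67.9, 93.7 and 130.3 with polystyrene and 0.502, 0.164 and 0.592 with both. Every cadmium and polystyrene brain lay far above every control, while the combined brains were near the highest control. The log2 fold change was 9.22 ± 0.67, edgeR adjusted p = 5.83e-05 with cadmium and 9.34 ± 0.67, edgeR adjusted p = 5.59e-05 with polystyrene. Cluster-2499.80522 held 393, 129 and 1084 CPM in the control brains, 0.193, 0.398 and 0.446 with cadmium, 3.76, 2.1 and 0.847 with polystyrene and 0.31, 3.32 and 4.23 with both. Its control values spread widely, and each exposed brain lay below the lowest of them, with log2 fold changes of -10.53 ± 1.33, edgeR adjusted p = 0.00319, -8.00 ± 1.16, edgeR adjusted p = 0.00538 and -7.67 ± 1.14, edgeR adjusted p = 0.00776. The leading cytochrome b cluster (Cluster-2499.88774) was not called. It held 4342, 7639.9 and 3751 CPM in controls and 3955, 3291 and 4139.9 CPM with cadmium.

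Further cytochrome b clusters differed in which exposure they followed. Cluster-2499.83487 held 0.269, 0.266 and 0.372 CPM in the control brains, 1.51, 1.32 and 1.7 with cadmium, 7.23, 5.25 and 8.58 with polystyrene and 0.368, 0.617 and 0.587 with both. It was highest with polystyrene (4.39 ± 0.40, edgeR adjusted p = 0.000101), also above control with cadmium (2.25 ± 0.40, edgeR adjusted p = 0.00578) and not called with both. Cluster-2499.87406 held 0.168, 0 and 0.0657 CPM in controls, 2.58, 2.03 and 2.69 with cadmium (5.01 ± 0.70, edgeR adjusted p = 0.00116) and 1.24, 0.909 and 0.804 with polystyrene (3.68 ± 0.71, edgeR adjusted p = 0.00779). Cluster-2499.74218 rose with cadmium and with both and not with polystyrene, at 3.94, 3.21 and 7.37 CPM in the control brains, 25, 18.1 and 19.4 with cadmium, 2.48, 2.69 and 3.11 with polystyrene and 8.31, 24.3 and 26.1 with both. Its log2 fold change was 2.05 ± 0.37, edgeR adjusted p = 0.00644 with cadmium and 2.01 ± 0.37, edgeR adjusted p = 0.00795 with both. Cluster-2499.92867 held 23.4, 7.12 and 5.98 CPM in the control brains, 122, 87.9 and 120.2 with cadmium, 40.2, 127 and 210.5 with polystyrene and 117, 201 and 79.9 with both and was called higher in all 3 exposures (3.15 ± 0.65, edgeR adjusted p = 0.0234 with cadmium, 0.0165 and 0.0165 with polystyrene and both). Those 3 calls were lost without control 5 or 6 or cadmium 4, 5 or 6 (edgeR adjusted p up to 0.13), without control 5 or 6 or polystyrene 6 (edgeR adjusted p up to 0.0893) and without control 5 or 6 or combined 5 (edgeR adjusted p up to 0.099). Cluster-2499.85580, higher with both exposures only (edgeR adjusted p = 0.0417), lost that call without control 5 or 6, cadmium 4, 5 or 6, polystyrene 4, 5 or 6 or combined 5 or 6 (edgeR adjusted p up to 0.131).

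**Figure D4:**
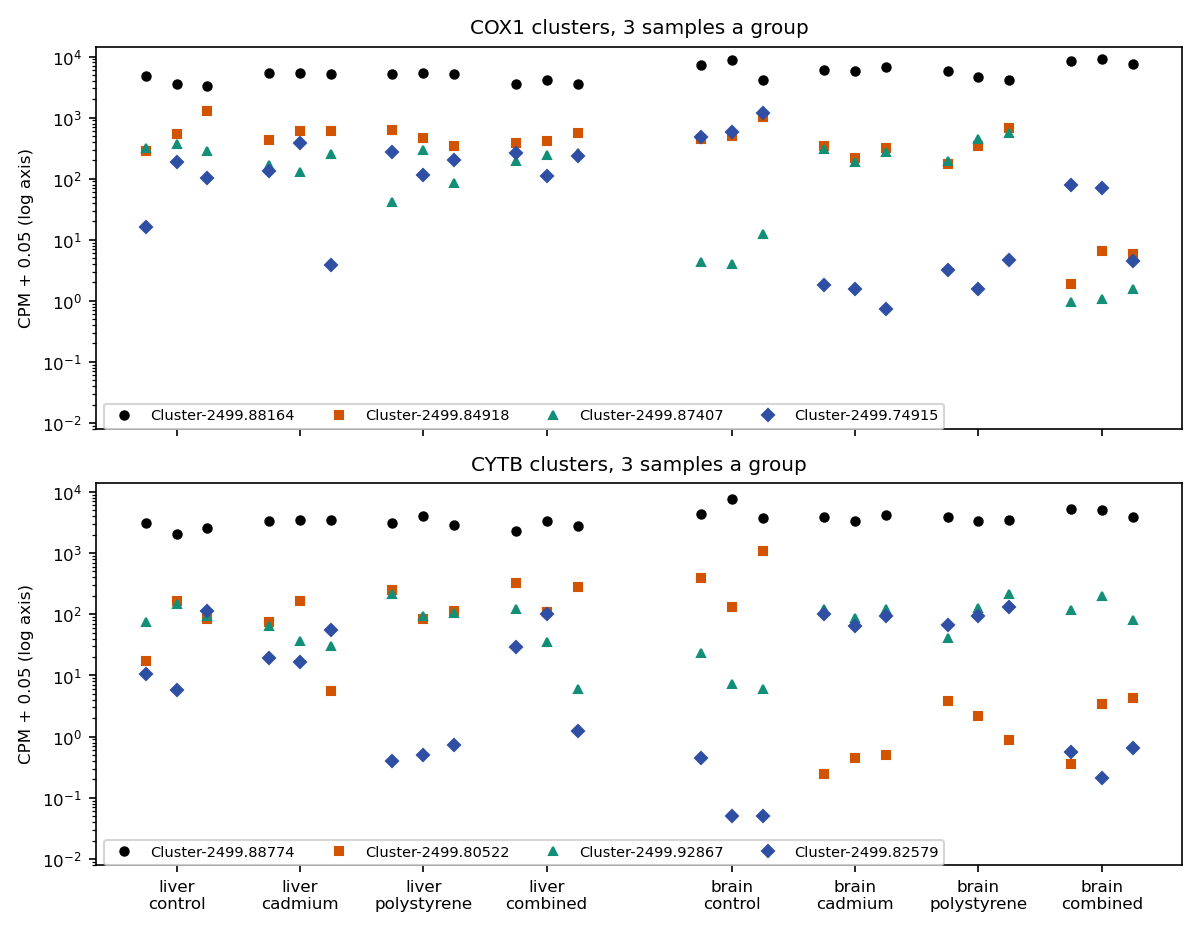
Level of 4 COX1 clusters (top) and 4 cytochrome b clusters (bottom) in each sample, in CPM plus 0.05 on a log axis, by tissue and treatment. The leading clusters Cluster-2499.88164 and Cluster-2499.88774 lie between 3261 and 8951 and between 2064 and 7640 CPM, in that order. Among brains, Cluster-2499.82579 and Cluster-2499.87407 are high with cadmium and with polystyrene, and Cluster-2499.80522 is low in all exposed groups. In liver Cluster-2499.87407 lies between 42.1 and 366 CPM and Cluster-2499.82579 between 0.349 and 114 CPM.

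COX1 clusters in brain showed the same mixture, with 2 of 13 tested called higher and 2 lower with cadmium, 2 higher and 3 lower with polystyrene, and 4 lower with both. Cluster-2499.87407 held 4.22, 3.94 and 12.3 CPM in the control brains, 302, 186 and 272 with cadmium, 192, 440.0 and 566 with polystyrene and 0.906, 1.02 and 1.51 with both. It rose with cadmium (5.15 ± 0.51, edgeR adjusted p = 0.000307) and with polystyrene (5.73 ± 0.52, edgeR adjusted p = 0.000207) and fell below the controls with both (-2.54 ± 0.50, edgeR adjusted p = 0.0154). The combined call was lost without combined 4 or 5 (edgeR adjusted p up to 0.0716). Cluster-2499.84918 held 447, 491 and 1024 CPM in the control brains, 349, 222 and 319.6 with cadmium, 176, 346 and 687 with polystyrene and 1.84, 6.53 and 5.71 with both. The combined brains stood apart from every other brain sample, with a log2 fold change of -7.12 ± 0.65, edgeR adjusted p = 0.000355, and the single exposures were not called. Cluster-2499.85509 held 38.2, 32.1 and 116 CPM in the control brains, 0.066, 0.603 and 0.54 with cadmium, 0.474, 0.566 and 0.692 with polystyrene and 0.122, 0.437 and 0 with both and fell in all 3 exposures (-7.26 ± 0.77, edgeR adjusted p = 0.000573 with cadmium, -6.86 ± 0.75, edgeR adjusted p = 0.000729 with polystyrene and -8.29 ± 0.84, edgeR adjusted p = 0.00056 with both).

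Cluster-2499.74915, also of COX1, fell with each single exposure and stood at intermediate levels in 2 of 3 combined brains, at 476, 585 and 1211 CPM in the control brains, 1.79, 1.5 and 0.671 with cadmium, 3.15, 1.52 and 4.57 with polystyrene and 77.7, 70.1 and 4.5 with both. Its log2 fold change was -9.21 ± 1.23, edgeR adjusted p = 0.00416 with cadmium and -8.06 ± 1.16, edgeR adjusted p = 0.00511 with polystyrene, and it was not called with both. Cluster-2499.95463 was at or near 0 in the controls, 0, 0 and 0.062 CPM, and held 9.07, 7.19 and 7.31 CPM with cadmium and 0.97, 15.9 and 28.1 CPM with polystyrene (edgeR adjusted p = 0.00927 and 0.00437). Its cadmium call was lost without control 4, 5 or 6 (edgeR adjusted p up to 0.0776). Cluster-2499.86868 was called lower with both (-4.22 ± 0.83, edgeR adjusted p = 0.0214), at 567, 2183 and 615 CPM in controls against 73.3, 81.3 and 22.9. The combined call was lost without control 5 or combined 4, 5 or 6 (edgeR adjusted p up to 0.0784). The leading COX1 cluster (Cluster-2499.88164) was not called in brain and held 7213, 8853 and 4148 CPM in the control brains, 6115, 5790.0 and 6789 with cadmium, 5829, 4689 and 4143 with polystyrene and 8336, 8951 and 7500.2 with both.

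COX3 was the only protein whose leading cluster was called in brain. Cluster-2499.87392 held 2185, 2252 and 2857 CPM in the control brains, 1428, 1178 and 1397 with cadmium, 1350.0, 1111 and 1078 with polystyrene and 1915, 1853 and 1527 with both. All cadmium and polystyrene brains lay below all controls (-0.91 ± 0.20, edgeR adjusted p = 0.0185 with cadmium, -1.15 ± 0.20, edgeR adjusted p = 0.00446 with polystyrene), and the combined brains were not called. The cadmium call was lost without control 6 or cadmium 4, 5 or 6 (edgeR adjusted p up to 0.0795). The shorter COX3 cluster Cluster-2499.88543 held 415, 2042 and 648 CPM in the control brains, 119, 96.1 and 134 with cadmium, 143, 104 and 83.7 with polystyrene and 151, 169 and 138 with both. Brain control 5 was well above the other controls, and each exposed brain lay below the lowest control, with log2 fold changes of -3.23 ± 0.51, edgeR adjusted p = 0.00484, -3.36 ± 0.51, edgeR adjusted p = 0.00363 and -2.75 ± 0.50, edgeR adjusted p = 0.011. The combined call was lost without combined 5 or 6 (edgeR adjusted p up to 0.0522). Cluster-2499.132889 held 1.35, 0.2 and 0.744 CPM in controls and no count with both, at least 12.2-fold lower (edgeR adjusted p = 0.0221), a call lost without control 4 or combined 5 or 6 (edgeR adjusted p up to 0.0648). COX2 clusters were lower where called. Cluster-2499.86148 held 379, 1489 and 639.8 CPM in the control brains, 246, 184 and 223 with cadmium, 191, 213 and 237 with polystyrene and 251, 441 and 235 with both and was lower with cadmium (-2.01 ± 0.41, edgeR adjusted p = 0.0156) and polystyrene (-2.11 ± 0.41, edgeR adjusted p = 0.01). The cadmium call was lost without cadmium 4, 5 or 6 (edgeR adjusted p up to 0.0727). Cluster-2499.69247 held 6.75, 7.52 and 7.5 CPM in controls, 0.871, 0.484 and 0.904 with cadmium (-3.32 ± 0.68, edgeR adjusted p = 0.0134) and 0.916, 0.8 and 0.196 with both (-3.44 ± 0.68, edgeR adjusted p = 0.0122). The cadmium call was lost without cadmium 4 or 5 (edgeR adjusted p up to 0.063).

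ATP6 had 1 of 5 tested clusters called in brain, the same one each time. Cluster-2499.86597 held 506, 718 and 1108 CPM in the control brains, 128, 102 and 128 with cadmium, 87.9, 129 and 204 with polystyrene and 117, 88.7 and 78 with both. Every exposed brain lay below the lowest control, and polystyrene 6 was the highest of them. The log2 fold change was -2.76 ± 0.34, edgeR adjusted p = 0.000539 with cadmium, -2.60 ± 0.33, edgeR adjusted p = 0.000841 with polystyrene and -3.00 ± 0.34, edgeR adjusted p = 0.000475 with both. The leading ATP6 cluster (Cluster-2499.89748) held 888, 2581 and 489 CPM in the control brains, 903, 695 and 838 with cadmium, 811, 1021 and 1437 with polystyrene and 1255, 1605 and 1136 with both and was not called.

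Markers of other cells moved with some of these brain groups. Blood cell markers were called higher for 14 of 88 tested with cadmium and none lower, for 8 with 4 lower with polystyrene, and for 11 with 2 lower with both. Of all tested clusters 2.6%, 4.66% and 2.13% were called higher in these comparisons and 1.75%, 2.42% and 1.79% lower. Their sum ran over 958 to 1718 CPM in controls, 1595 to 1995 with cadmium, 1461 to 2132 with polystyrene and 1678 to 1852 with both, and 90 of 228 were at 0 in the controls. Muscle markers summed to 14229 to 27833 CPM in controls and 31795 to 51059.7 CPM with both, with 3 of 39 called higher and none lower, and 6 of 62 were at 0 in the controls and 17 with both. The part of these shifts in the member results was not tested.

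The difference between samples over the minor clusters was as large within the control brains as between many groups. Over 58 viviparid members that lead no protein and reach a mean of 5 CPM, the median absolute log2 difference between a pair of samples was taken with a pseudocount of 0.5 CPM. Pairs of control brains differed by 0.66 to 1.29, pairs of cadmium brains by 0.15 to 0.40, and pairs of brains from different groups by 0.33 to 2.27 (median 0.70). In liver pairs of 1 group differed by 0.22 to 0.83 and pairs of different groups by 0.30 to 1.0. Within a group, the median SD on the log2 scale was 0.50 in liver and 0.60 in brain over 70 members, beside 0.23 and 0.29 over 20559 clusters of at least 5 CPM.

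Beside the single exposures, the combined brains had higher mean protein totals, while most of the few called clusters were lower. All 12 protein totals had a higher mean with both exposures than with cadmium (log2 ratio 0.23 to 0.68) and than with polystyrene (0.10 to 0.72). The combined samples did not overlap the cadmium samples for 5 of the 12 proteins, or the polystyrene samples for 4. Combined 6, at 27354 CPM over all members, lay below cadmium 4 and 6 and polystyrene 6. The 12 totals come from the same samples and are not independent of each other. The 12 leading clusters had log2 fold changes of 0.35 to 1.02 against cadmium and 0.14 to 1.07 against polystyrene, none called. Of the 77 other tested members 48 had a log2 fold change above 0 and 28 below 0 against cadmium (median 0.26), and 40 above and 35 below 0 against polystyrene (median 0.08). Against cadmium 3 of 89 members were called higher and 8 lower, where 1.25% and 1.53% of all clusters were (2.79% either way). Against polystyrene 2 were higher and 7 lower, where 1.24% and 2.26% were (3.51% either way). The count against cadmium was 5 without cadmium 4, cadmium 5 or combined 5, 6 without cadmium 6 or combined 4, and 7 without polystyrene 5. The count against polystyrene was 18 without control 5 and 5 without combined 5. Summed, the 8 clusters lower than with cadmium held 672 ± 142 CPM in cadmium brains and 7.95 ± 3.62 CPM in combined brains.

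The largest of these were clusters already described. COX1 Cluster-2499.87407 was lower than with cadmium (-7.69 ± 0.59, edgeR adjusted p = 0.000113) and than with polystyrene (-8.27 ± 0.60, edgeR adjusted p = 8.86e-05). Cytochrome b Cluster-2499.82579 was lower too (-7.56 ± 0.59, edgeR adjusted p = 0.000113 and -7.67 ± 0.59, edgeR adjusted p = 0.000112). So was COX1 Cluster-2499.84918 (-5.92 ± 0.62, edgeR adjusted p = 0.000763 and -6.28 ± 0.63, edgeR adjusted p = 0.000569). Cytochrome b Cluster-2499.83487 was lower than with polystyrene (-3.59 ± 0.37, edgeR adjusted p = 0.000329) and Cluster-2499.74218 higher (2.95 ± 0.39, edgeR adjusted p = 0.00125). ND1 Cluster-2499.109772 was lower than with cadmium (edgeR adjusted p = 0.00265). A COX2 cluster (Cluster-2499.87961) held 575, 499 and 417 CPM with polystyrene and 1000.5, 1404 and 924 CPM with both (1.29 ± 0.27, edgeR adjusted p = 0.0176). The call was lost without polystyrene 5 or 6 or combined 5 (edgeR adjusted p up to 0.0844). These combined brains held more muscle markers than any other brain sample, at 51059.7, 40754 and 31795 CPM, and the part of that in the differences was not tested.

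In liver few members were called, and none of the calls held under every alternative. With cadmium 3 of 81 tested members were higher and none lower, where 1.66% of all clusters were called higher and 1.8% lower (3.46% either way). With polystyrene 2 were higher and 2 lower against 1.58% and 1.56% (3.14% either way), and with both 2 were higher and 4 lower against 2.86% and 3.39% (6.24% either way). These shares of the members lie near the background. The median log2 fold change of the tested members was 0.14, 0.17 and 0.11. The cadmium count was 0 without control 2 or 3 and 1 without cadmium 1 or 2. The polystyrene count was 0 without control 2, control 3 or polystyrene 3, 1 without cadmium 1 or polystyrene 1 or 2, and 2 without combined 3. The combined count was 1 without control 2, 2 without control 3 or combined 3, and 3 without combined 1.

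The leading COX1 cluster (Cluster-2499.88164) held 4893, 3534 and 3261 CPM in the control livers, 5437, 5284 and 5267 with cadmium, 5210.3, 5335 and 5228 with polystyrene and 3602, 4077 and 3550.3 with both. Its cadmium livers lay above all controls (0.48 ± 0.12, edgeR adjusted p = 0.0468) and above all combined livers (-0.49 ± 0.12, edgeR adjusted p = 0.0478 for combined against cadmium). The cadmium call was lost without control 2 or 3, cadmium 1, 2 or 3, polystyrene 1, 2 or 3 or combined 2 or 3 (edgeR adjusted p up to 0.195). The call of combined against cadmium was lost without cadmium 1, 2 or 3, polystyrene 1, 2 or 3 or combined 1, 2 or 3 (edgeR adjusted p up to 0.154). The leading COX2 cluster (Cluster-2499.86733) held 683, 564 and 551 CPM in the control livers, 650.3, 634 and 664 with cadmium, 1022, 911 and 796 with polystyrene and 584, 762 and 533 with both and was higher with polystyrene (0.56 ± 0.14, edgeR adjusted p = 0.039). The call was lost without control 2 or 3, cadmium 1 or polystyrene 1, 2 or 3 (edgeR adjusted p up to 0.168). The leading ND4L cluster (Cluster-2499.90315), whose protein is a small membrane subunit of complex I, held 13.4, 11.1 and 7.79 CPM in the control livers, 12, 14.2 and 12.3 with cadmium, 17.1, 16.8 and 16.5 with polystyrene and 27.7, 16.8 and 15.8 with both and was higher with both (0.95 ± 0.22, edgeR adjusted p = 0.0255). The call was lost without control 2 or 3 or combined 1 (edgeR adjusted p up to 0.0901).

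Minor clusters made up the remaining liver calls. ATP6 Cluster-2499.85283 held 102, 185 and 150.2 CPM in the control livers, 104, 49.5 and 60.6 with cadmium, 28.6, 35.9 and 15.2 with polystyrene and 11.9, 32.3 and 22.9 with both, lower with polystyrene (-2.50 ± 0.45, edgeR adjusted p = 0.0217) and with both (-2.67 ± 0.45, edgeR adjusted p = 0.0123). The polystyrene call of Cluster-2499.85283 was lost without control 2 or 3 or polystyrene 1, 2 or 3 (edgeR adjusted p up to 0.0786), and the combined call only without combined 3 (edgeR adjusted p = 0.0508). ND5 Cluster-2499.114185 held 0.275, 0.565 and 0.802 CPM in controls and 9.7, 23.6 and 1.42 CPM with cadmium (4.37 ± 0.82, edgeR adjusted p = 0.0178), a call lost without control 1, 2 or 3 (edgeR adjusted p up to 0.0989). In brain the same cluster was lower with cadmium (-3.69 ± 0.84, edgeR adjusted p = 0.0232), lost without control 5 or cadmium 5 or 6 (edgeR adjusted p up to 0.0934). Cytochrome b Cluster-2499.74218 held 2.38, 1.64 and 0.703 CPM in controls and 20.1, 15.6 and 16.1 CPM with polystyrene (3.4 ± 0.73, edgeR adjusted p = 0.0387), lost without control 1, 2 or 3, cadmium 1, 2 or 3, polystyrene 1, 2 or 3 or combined 3 (edgeR adjusted p up to 0.155). COX3 Cluster-2499.89870 held 721, 758 and 771 CPM in controls and 379, 589 and 465 CPM with both (-0.62 ± 0.14, edgeR adjusted p = 0.0201), lost without control 2 or 3 or combined 1 or 3 (edgeR adjusted p up to 0.0679). ND4 Cluster-2499.57730 with cadmium (edgeR adjusted p = 0.0439), ND5 Cluster-2499.94290 with polystyrene (0.0411), and COX3 Cluster-2499.90495, ND4 Cluster-2499.76162 and COX1 Cluster-2499.85509 with both (0.0447, 0.0268 and 0.0459) each lost the call in 5 or more omissions.

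Combined livers differed from cadmium livers in 5 members, all lower, where 1.12% of all clusters were called higher and 1.38% lower (2.5% either way). Besides the leading COX1 cluster these were COX1 Cluster-2499.88900 (-0.39 ± 0.09, edgeR adjusted p = 0.034), COX3 Cluster-2499.89870 (-0.57 ± 0.14, edgeR adjusted p = 0.0438), and ND5 Cluster-2499.114185 and Cluster-2499.94290 (edgeR adjusted p = 0.0273 and 0.0387). That count was 0 without cadmium 1 or combined 3, 1 without cadmium 2 or polystyrene 2 or 3, 2 without combined 1, and 3 without control 3 or combined 2. Mean protein totals were lower in the combined livers for 11 of 12 proteins, with log2 ratios from -0.42 for COX1 to 0.65 for ND4L. Combined and cadmium livers did not overlap for 7 of the 12. Against polystyrene no member was called by edgeR, where 0.491% of all clusters were higher and 0.829% lower (1.32% either way). An unadjusted edgeR p under 0.05 was found for 10 of 81 members and for 8016 of all 55762 tested clusters, so the members do not stand out. DESeq2's Wald test called 2 members, a count given without its share over all clusters. Ciliary markers were called lower for 25 and higher for 2 of 104 in the combined livers against control, and muscle markers higher for 12 of 34. Of all tested clusters 2.86% were called higher and 3.39% lower in that comparison. The part of these marker shifts in the member results was not tested.

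**Figure D5:**
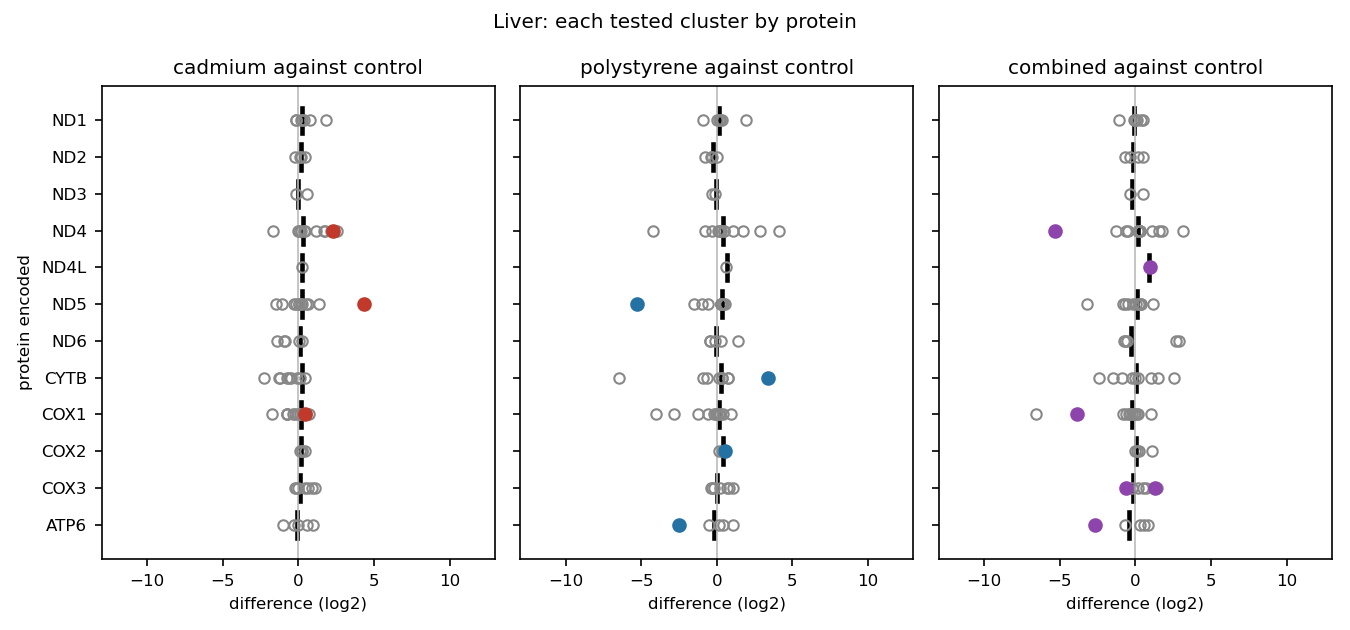
Difference from control on the log2 scale for each tested cluster in liver, by encoded protein, under cadmium, polystyrene and both (filled points called at an edgeR adjusted p under 0.05, open points not called, black bar the log2 ratio of the protein's summed mean levels). The bars lie between -0.39 and 0.90, and 13 points over the 3 panels are filled.

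Between the tissues of control snails, 31 of 92 tested members were higher and 14 lower in brain, where 23.5% of all clusters were called higher and 26.2% lower (49.7% either way). This fit covers all 24 samples and scales libraries by TMM, with factors of 0.73 to 0.85 in liver and 1.11 to 1.38 in brain, so its log2 fold changes of brain over liver lie below the log2 ratios of plain CPM. Without brain control 5 the numbers higher and lower were 18 and 15. ND6 clusters were mostly higher in brain, 5 of 6 tested, and 5 of 10 of cytochrome b and 3 of 13 of COX1 were lower, the COX1 share being no larger than the 26.2% of all clusters. ND4 Cluster-2499.26158 had no count in control livers and 2.83, 7.26 and 2.6 CPM in control brains, at least 59.8-fold higher (edgeR adjusted p = 7.68e-06). ND5 Cluster-2499.94803 held 9.46, 6.53 and 2.35 CPM in control livers and no count in control brains, at least 93.8-fold lower (edgeR adjusted p = 1.72e-08). COX1 Cluster-2499.87407 held 314, 366 and 284 CPM in control livers against 4.22, 3.94 and 12.3 in control brains (-6.17 ± 0.67, edgeR adjusted p = 4.56e-07). Of the 7 clusters called higher in both cadmium and polystyrene brains, Cluster-2499.87407, Cluster-2499.82579, Cluster-2499.83487, Cluster-2499.87406, Cluster-2499.95463 and Cluster-2499.92867 were called lower in control brain than in control liver and Cluster-2499.88267 was not (-0.66 ± 0.34, edgeR adjusted p = 0.119), a comparison that uses the same control brains. The response itself was also compared between tissues in the fit of all 24 samples. For cadmium 3 of 92 members had a higher and 13 a lower response in brain than in liver, against 1.41% and 0.815% of all clusters (2.23% either way). For polystyrene 5 were higher and 9 lower against 1.72% and 1.12% (2.84% either way). For both exposures none was higher and 12 were lower against 1.2% and 0.78% (1.98% either way), a count that was 7 without liver control 1 or brain combined 6.

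Members whose best match is no snail were rare and unevenly placed. The 8 rodent members, all with a best nucleotide match to Mus musculus, were the source of the 159.9 CPM in brain control 6. The 5 annelid members summed to 6.27, 2.7 and 1.43 CPM in cadmium brains 4, 5 and 6 and the 5 nematode members to 0, 0.415 and 5.36 CPM. Outside the cadmium brains they were at 0 apart from 0.0644 CPM of annelid members in 1 cadmium liver. COX3 member Cluster-4279.0, grouped with the annelids by its best protein match but with a fly, Peleteria iavana, as its best nucleotide match, held 2.05, 0.969 and 0.714 CPM in cadmium brains, at least 19.1-fold higher than the controls (edgeR adjusted p = 0.0329), and its call was lost without any 1 of control 4, 5 or 6 or cadmium 4, 5 or 6 and by DESeq2's Wald test.

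Nuclear-encoded subunits of the same chain, 70 clusters over complexes I to V, gave few calls. Few clusters were called in all as well. With cadmium, polystyrene and both, 3.46%, 3.14% and 6.24% of all tested clusters were called in liver. In brain these shares were 4.34%, 7.08% and 3.92%, and the calls with both exposures lie near that share. In liver none of 56 tested was called by edgeR in any exposure. In brain none of 58 was called with cadmium, 1 was lower with polystyrene and 1 higher and 1 lower with both, with medians of -0.03, -0.21 and -0.05 on the log2 scale. The called ones were ATP synthase subunit epsilon (Cluster-2499.85364), 70.3, 83.2 and 55.4 CPM in controls and 45.9, 45.5 and 53.5 CPM with polystyrene (-0.64 ± 0.18, edgeR adjusted p = 0.046), the iron-sulfur protein 2 of complex I (Cluster-2499.107938), 9.49, 5.46 and 11.7 and 28.4, 25.7 and 22 CPM with both (1.56 ± 0.28, edgeR adjusted p = 0.0072), and a beta subcomplex subunit 7 (Cluster-2499.100707, -1.93 ± 0.51, edgeR adjusted p = 0.0498). Calls of single list clusters, here and in the next paragraph, were not followed through the alternative settings or with samples left out. Assembly factors of the chain, 21 tested in liver and 22 in brain, gave no call by edgeR in any exposure.

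Some clusters on the lists of mitochondrial genome expression and of mitochondrial removal and fusion were called. A mitochondrial ribosomal protein S29 (Cluster-2499.82400) was lower in each exposed liver group, at 5.03, 9.18 and 7.73 CPM in controls, 0.907, 1.48 and 0.646 with cadmium, 1.01, 1.39 and 0.905 with polystyrene and 1.55, 0.792 and 0.967 with both (-2.83 ± 0.38, edgeR adjusted p = 0.00167; -2.73 ± 0.37, edgeR adjusted p = 0.00204; -2.65 ± 0.37, edgeR adjusted p = 0.00179). A second S29 cluster (Cluster-2499.96208) was lower too (-1.12 ± 0.22, edgeR adjusted p = 0.0152 with polystyrene). These 2 were the only ones called of 59 mitochondrial ribosomal proteins in liver, where 9.39% of all tested clusters were called at least once. FAST kinase domain-containing protein 4 (Cluster-2499.69674), which in mammals steadies mitochondrial RNAs, was higher with polystyrene in liver (3.09 ± 0.53, edgeR adjusted p = 0.013) and in brain (1.12 ± 0.30, edgeR adjusted p = 0.0385). Pink1 (Cluster-2499.76541), the kinase that marks damaged mitochondria for removal, was higher in brain with cadmium (54.5, 38.7 and 47.4 against 25, 19.6 and 17.8 CPM, 1.12 ± 0.26, edgeR adjusted p = 0.0232) and polystyrene (1.45 ± 0.26, edgeR adjusted p = 0.00495) and lower in liver with both (-1.31 ± 0.26, edgeR adjusted p = 0.0116). A Mitofusin-1 cluster (Cluster-2499.52723), of outer membrane fusion, rose in brain with cadmium (0, 0 and 0.062 CPM in controls, 13.3, 12.1 and 20.3 CPM with cadmium, edgeR adjusted p = 0.00299). FAST kinase domain-containing protein 4, Pink1 and Mitofusin-1 are named by smallest adjusted p, without the number called on their lists. Of all tested clusters 3.14% were called with polystyrene and 6.24% with both in liver. In brain 4.34% were called with cadmium and 7.08% with polystyrene.

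The cluster most like the member total over the 24 samples, after the mean of each tissue was removed, was Cluster-2499.88014. It is an unnamed 3366-base cluster with a best nucleotide match to the Bellamya aeruginosa mitochondrion, with a Pearson correlation of 0.89 among 20489 candidates of at least 5 CPM, or 0.73 without brain control 5. The next 9 had correlations of 0.83 to 0.85, and of these only Chondroitin sulfate proteoglycan 4 (Cluster-2499.98397) carried a name. These values share libraries and depth with the members and are given as a description.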

How the data were processed

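RNA-seq of 24 samples, 3 in each of 8 groups of tissue and treatment, was used. The labels' protocols name a SMARTER mRNA-Seq kit. The authors deposited 1 table of assembled clusters with estimated counts for each sample and database descriptions. The aligner and counter are not given in the sources used here. Between 3.54% and 7.14% of a sample's values (zeros counted) were not whole, and all were rounded to whole counts. Members and lists were chosen with earlier results of these data known, and names are best database matches. Clusters passed filterByExpr (minimum count 10), were scaled by TMM and were tested with edgeR 4.0.16 in R 4.3.3 (quasi-likelihood, robust, Benjamini-Hochberg) over 55762 clusters in liver and 64046 in brain, or 78809 over 24 samples for comparisons between tissues. Errors beside log2 fold changes are standard errors. Levels are plain CPM computed with pandas 2.3.3. The test was checked on simulated counts. No pair of samples had identical values. Named in the text are the most abundant cluster of each protein, up to 8 called members with the smallest adjusted p in each direction of a comparison, and up to 3 such clusters of each list. Alternatives were other filters, DESeq2 size factors, TMM without the members, DESeq2 1.42.0's Wald test, fits of only the groups compared, a replicate block, and each sample left out.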

Additional observations from a re-analysis of the deposited data

Results flagged for a closer look

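The response to treatment differed between brain and liver for a set of members, by an interaction test in edgeR over all 24 samples. Of 92 tested members 16 differed for cadmium, 14 for polystyrene and 12 for both exposures. Of all tested clusters 2.23%, 2.84% and 1.98% differed, in that order. With each sample left out the member counts ran over 11 to 23, 10 to 18 and 7 to 15. The 3 comparisons share the control samples of both tissues. The difference is the log2 fold change in brain minus that in liver. For cadmium, COX1 Cluster-2499.87407 had a difference of 5.91 ± 0.82, edgeR adjusted p = 0.000976. In separate fits by tissue its log2 fold change was 5.15 ± 0.51 in brain and -0.75 ± 0.60 in liver. Cytochrome b Cluster-2499.82579 had a difference of 9.71 ± 2.07, edgeR adjusted p = 0.0209, lost without liver control 3, liver cadmium 1 or 2 or brain control 5 or 6 (edgeR adjusted p up to 0.0664), and ND1 Cluster-2499.109772 one of 9.09 ± 1.76, edgeR adjusted p = 0.00712, lost without liver control 3 (edgeR adjusted p = 0.0759). The remaining ones were negative. Cytochrome b Cluster-2499.80522 stood at -10.41 ± 1.83, edgeR adjusted p = 0.00636. COX3 Cluster-2499.88543 stood at -3.62 ± 0.66, edgeR adjusted p = 0.00633, and ND5 Cluster-2499.114185 at -8.03 ± 1.19, edgeR adjusted p = 0.000939.

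For polystyrene, Cluster-2499.82579 had a difference of 15.85 ± 2.30, edgeR adjusted p = 0.00163. It held 10.5, 5.69 and 114 CPM in control livers and 0.349, 0.448 and 0.692 CPM in polystyrene livers, the opposite direction to the brain. Cluster-2499.87407 had a difference of 7.0 ± 0.84, edgeR adjusted p = 0.000286, and cytochrome b Cluster-2499.83487 one of 4.25 ± 0.91, edgeR adjusted p = 0.0136, lost without brain control 5 (edgeR adjusted p = 0.0558). Cytochrome b Cluster-2499.74218 stood at -4.32 ± 0.83, edgeR adjusted p = 0.00726. COX3 Cluster-2499.88543 stood at -3.56 ± 0.66, edgeR adjusted p = 0.00623, and COX2 Cluster-2499.86148 at -2.43 ± 0.46, edgeR adjusted p = 0.00527.

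For both exposures, COX1 Cluster-2499.84918 had a difference of -6.52 ± 0.82, edgeR adjusted p = 0.000437. It held 282, 539.6 and 1282 CPM in control livers and 383, 417 and 567 CPM in combined livers, with overlap. ND6 Cluster-2499.72010 stood at -11.39 ± 1.68, edgeR adjusted p = 0.00197, and ND5 Cluster-2499.92757 at -7.08 ± 1.26, edgeR adjusted p = 0.00749.

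Members whose best protein match is an annelid summed to a mean of 3.47 CPM in the cadmium brains and those whose best protein match is a nematode to 1.92 CPM, where the control brains held none.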

How the results depend on the processing

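Over 5 comparisons in each tissue, 47 of 93 member calls in brain and 0 of 18 in liver were kept under every alternative. The number of members called moved by over 1.5 times in these cases. With no filter it was 12, 10, 12 and 7 in liver for cadmium, polystyrene, combined against cadmium and combined against polystyrene, and 19 and 19 in brain for combined against cadmium and against polystyrene. By DESeq2's Wald test it was 8, 12, 13, 12 and 2 in liver for cadmium, polystyrene, both, combined against cadmium and combined against polystyrene. In brain it was 31 for both and 16 for combined against polystyrene, and for the difference between tissues 31, 22 and 25 for cadmium, polystyrene and both. With only the samples compared it was 1 for combined against cadmium and 1 for combined against polystyrene in liver, and 17 for combined against cadmium in brain. With the replicate block it was 1 for cadmium in liver, 7 for combined against cadmium in brain and 9 for the polystyrene difference between tissues. The labels do not say whether the sample numbers pair samples. Deviations of samples with the same number had correlations of -0.105 to 0.127 in liver and -0.147 to 0.160 in brain. Those of different numbers ran from -0.181 to 0.151 and from -0.260 to 0.206. With so few samples these values cannot exclude a pairing by number. With each sample left out it ran, for cadmium, polystyrene, both, combined against cadmium and combined against polystyrene, over 0 to 4, 0 to 6, 1 to 8, 0 to 5 and 0 to 1 in liver, and over 17 to 32, 16 to 30, 10 to 23, 5 to 16 and 5 to 18 in brain. It ran over 33 to 51 for the control tissues and 11 to 23, 10 to 18 and 7 to 15 for the differences between tissues. The number of protein totals below control ran over 1 to 3, 1 to 5 and 6 to 9 in liver and 10 to 12, 9 to 12 and 4 to 12 in brain. Over only the members named by both databases, the summed level was 16263, 19309, 19402 and 15797 CPM in control, cadmium, polystyrene and combined livers, and 21900.4 and 21679.7 CPM in cadmium and polystyrene brains, fewer clusters being summed. Without brain control 5, 14 of the 36 fold changes of leading clusters in exposed brains turned direction. Of the results called with or without that sample 3 did, namely ND3 Cluster-2499.83820 in combined brains (from -0.19 ± 0.45 to 0.86, edgeR adjusted p = 0.0321, with -0.53 the lowest over the other omissions), and between control tissues Cluster-2499.89748 of ATP6 (for Cluster-2499.89748, control brain against control liver, -0.96, edgeR adjusted p = 0.00884, and up to 0.39 with another sample left out) and Cluster-2499.93080 of NADH dehydrogenase subunit 5 (-0.47, edgeR adjusted p = 0.531, and up to 2.90 with another). The cause was not tested. Over all clusters, no filter gave 3633 to 7619 calls a comparison and DESeq2 2273 to 7089. Only the samples compared gave 2267 for both in liver, 623 for combined against cadmium in liver, 2791 for polystyrene and 1340 for both in brain, and 842 for the combined difference between tissues.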
